A study of Mus musculus with 21 samples.

Results

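The 7 subunits of respiratory complex I that are encoded by the mitochondrial genome (mt-Nd1, mt-Nd2, mt-Nd3, mt-Nd4, mt-Nd4l, mt-Nd5 and mt-Nd6) were followed in mouse heart RNA. They were chosen by name, and they are 7 of the 23855 genes with reads in the 21 libraries. The study crosses a diet with a vector to model heart failure in which the ejection fraction is preserved. All mice were males of the C57BL/6NJ strain, aged 8 to 10 weeks when they were assigned to chow or to a high-fat diet (60% of its energy from fat) for 10 weeks. Chow controls (n = 4) and high-fat controls (n = 6) had no renin vector. Chow renin hearts (n = 6) and high-fat renin hearts (n = 5) came from mice given an adeno-associated virus with renin, and hearts were taken 6 weeks after injection. The sample labels write novirus for the control groups, whereas the series description gives them a null vector. The promoter of the vector and the part of the heart sampled are not given in the sources used here.

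Complex I takes electrons from NADH, passes them to ubiquinone and pumps protons across the inner mitochondrial membrane. Its membrane arm is built around the 7 mitochondrially encoded proteins, while the other subunits come from nuclear genes. Both strands of the mitochondrial genome are transcribed into long precursors that are cut into single mRNAs, so the amount of each mRNA also depends on how long it lasts. Heart muscle is rich in mitochondria, and mitochondrial transcripts are a large part of its RNA.

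The first bases of the 7 mRNAs are shown because they place each gene, with the first codon in capitals (GENCODE M21 transcripts, GRCm38 build, chromosome M). The genes lie on the plus strand at 2751 to 3707 (mt-Nd1, ENSMUSG00000064341), 3914 to 4951 (mt-Nd2, ENSMUSG00000064345), 9459 to 9806 (mt-Nd3, ENSMUSG00000064360), 9877 to 10173 (mt-Nd4l, ENSMUSG00000065947), 10167 to 11544 (mt-Nd4, ENSMUSG00000064363) and 11742 to 13565 (mt-Nd5, ENSMUSG00000064367). Only mt-Nd6 (ENSMUSG00000064368, 13552 to 14070) lies on the minus strand. Each is a single exon.
mt-Nd1: GTGttctttattaatatcctaacactcctc
mt-Nd2: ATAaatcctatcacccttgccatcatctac
mt-Nd3: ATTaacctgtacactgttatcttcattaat
mt-Nd4l: ATGccatctaccttcttcaacctcaccata
mt-Nd4: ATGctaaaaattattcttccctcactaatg
mt-Nd5: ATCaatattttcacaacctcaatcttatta
mt-Nd6: ATGaataattatatttttgttttaagttca

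Neighbouring members share bases at 2 places, shown here because reads from those bases fit more than 1 gene. The last 7 bases of mt-Nd4l are also the first 7 of mt-Nd4, in capitals in the first pair of lines. The ends of mt-Nd5 and mt-Nd6 overlap by 14 bases on opposite strands, in capitals in the second pair. Whether the counting used the strand is not given in the sources used here, so reads of the second overlap cannot be told apart.
mt-Nd4l, last bases: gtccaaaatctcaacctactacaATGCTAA
mt-Nd4, first bases: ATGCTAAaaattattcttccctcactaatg
mt-Nd5, last bases: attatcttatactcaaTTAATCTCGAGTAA
mt-Nd6, last bases: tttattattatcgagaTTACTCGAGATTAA

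The values of mt-Nd3 turn on a nuclear copy, which is why its bases are shown beside the gene. Gm28438 (ENSMUSG00000101939), annotated as an unprocessed pseudogene at 24612775 to 24613119 on the minus strand of chromosome 1, matches mt-Nd3 in 344 of its 345 bases. The single substitution is T3C, counted from 1 at the 5′ end of mt-Nd3, and is the capital letter in the first 90 bases of both. The copy also lacks the last 3 bases of mt-Nd3, in capitals in the ends below.
mt-Nd3, bases 1 to 90: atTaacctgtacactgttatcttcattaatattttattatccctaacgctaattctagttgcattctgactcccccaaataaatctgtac
Gm28438, bases 1 to 90: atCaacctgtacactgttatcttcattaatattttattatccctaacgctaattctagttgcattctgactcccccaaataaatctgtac
mt-Nd3, end: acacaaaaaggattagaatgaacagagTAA
Gm28438, end: acacaaaaaggattagaatgaacagag

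Only a read that reaches the base at position 3 or runs into the last 3 bases tells the gene from the copy. The deposited estimates gave Gm28438 844766 reads over the 21 libraries and mt-Nd3 586540, so that the pseudogene held 144% of the reads of the gene. Between 28414 and 51574 reads went to Gm28438 in each library. Of the other members, mt-Nd4 has the copy Gm28439, which matches it over 876 bases without a difference and was given 0 to 23153 reads per library, 1.19% of those of mt-Nd4 in all. Gm10222, a copy of mt-Nd4l over 294 bases, was given 0 reads. Copies of mt-Nd2 (Gm13339) and mt-Nd5 (Gm4076) had at most 12 and 10 reads in a library, and mt-Nd1 and mt-Nd6 had no copy that matched over at least 100 bases at 95% identity or more. The mt-Nd3 values below are therefore uncertain, and its levels and differences between groups are given again with the reads of the copy added. The heat map of shares and the correlations of mt-Nd3 use the reads given to the gene alone.

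Library totals were 18.7 to 29.3 M estimated reads (M, megareads). All 4 chow control libraries lay at or below 21.4 M reads and all others at or above 22.8 M reads, so depth and the chow control group cannot be told apart. The 12 heart muscle marker genes (such as Myh6 and Tnnt2) had reads in every group, with a summed level of 36522 to 50268 TPM (the deposited level per transcript length). Atrial marker genes stood at 518 to 1131 TPM summed in 5 libraries (chow control 3, chow renin 1 and 3, high-fat control 3 and high-fat renin 3) and at 17.7 to 35.9 in the other 16, so the heart numbered 3 carried them in every group. Markers of the central nervous system had a summed level of 72.5 to 122 TPM in chow renin and 17.1 to 31.1 in the other groups. Ren1, the mouse renin gene, had at most 5 reads in any library, so these hearts hold no check of the renin label. In whole tissue, fewer cells of a type and less RNA per cell cannot be told apart.

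Together the 7 mRNAs held 8.99 to 11.6% of all reads of a library. Their summed share was 9.58, 9.89, 9.62 and 9.91% in the chow control hearts. It ranged from 9.16 to 10.2% in chow renin (median 9.70%) and from 9.39 to 11.6% in high-fat control (median 10.6%). The high-fat renin hearts stood at 8.99, 10.5, 10.2, 10.8 and 10.2%. High-fat control 6, with 9.39%, lay inside the chow range, while its 5 group mates lay above every chow heart.

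The mean share was 9.75% ± 0.18 (SD, n = 4) in chow control and 10.6% ± 0.80 (SD, n = 6) in high-fat control. This difference of 0.89 percentage points gave p = 0.0667 in a two-sided exact permutation test and 0.333 after Benjamini-Hochberg adjustment over the 5 pairs of groups. The mean was 9.66% ± 0.35 (SD, n = 6) in chow renin and 10.1% ± 0.69 (SD, n = 5) in high-fat renin. That pair differed by 0.49 points (exact permutation p = 0.154, adjusted 0.384). The other pairs had adjusted exact permutation p-values of 0.417 to 0.648, so none of the 5 differences passed 0.05. Without high-fat renin 1 the difference under renin was 0.78 points and passed (exact permutation test, adjusted p = 0.0476). All 13 mitochondrial mRNAs summed took 29.5 to 37.9% of the reads of a library.

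Levels per length ordered the members differently on different scales. On the deposited TPM scale, which divides by an effective length, mt-Nd4l was the highest with a mean of 52436 over the 21 libraries. It was followed by mt-Nd1 (25192), mt-Nd4 (20317), mt-Nd2 (17583), mt-Nd6 (17227), mt-Nd5 (12802) and mt-Nd3 (7783). Each gene stood above the next in 20 or 21 of 21 libraries, except that mt-Nd2 exceeded mt-Nd6 in 12, so those neighbours do not differ beyond their spread.

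RPKM, computed here from library totals and annotated lengths, gave another order. mt-Nd1 led with 21640 ± 1759.9 (SD, n = 21), mt-Nd4 followed with 20208 ± 1865, and mt-Nd4l came next with 18307 ± 1806. mt-Nd2 stood at 15706, mt-Nd5 at 13675, mt-Nd6 at 10111 and mt-Nd3 at 3250 on that scale. The first place of mt-Nd4l was seen on the TPM scale only, where the effective length of this 297-base transcript was 77.1 bases in chow control 1. mt-Nd3 was last on both scales, but with the reads of Gm28438 added its TPM came to a mean of 19249, above mt-Nd2 in 20 of 21 libraries, and its RPKM to 7946, still the lowest of the 7.

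**Figure D1:**
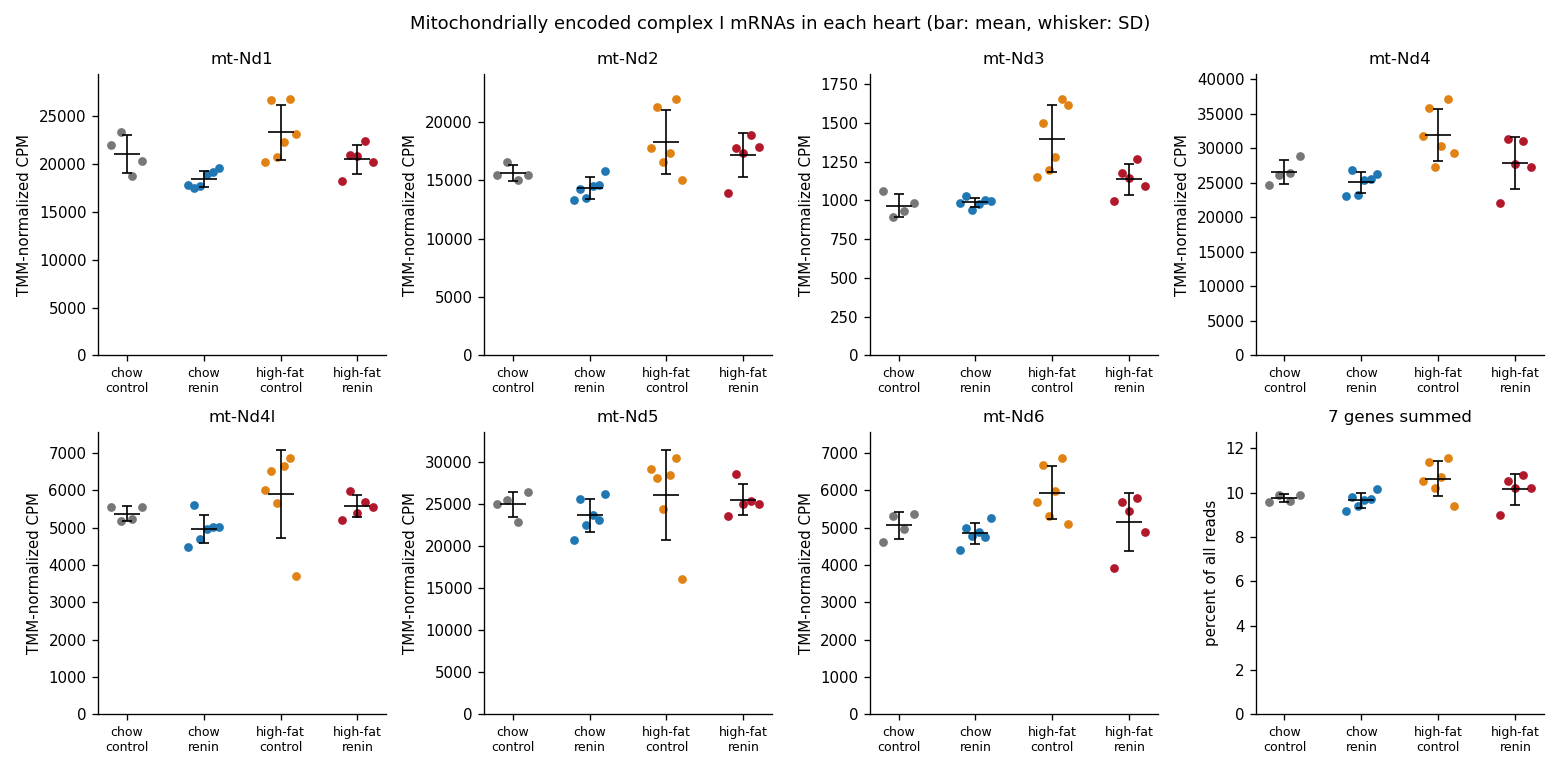
Each point is 1 heart, with the group mean and SD as a bar and whisker. The first 7 panels show CPM (reads scaled to library size with TMM factors) of 1 gene each, and the last shows the 7 genes summed as a percent of all reads. All 6 high-fat control hearts lie above all chow control hearts for mt-Nd3, and high-fat control 6 is the low point for mt-Nd4l and mt-Nd5.

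The diet comparison without renin asked what the high-fat diet alone does. mt-Nd3, a small subunit with a loop near the ubiquinone site, was the only member called. Its level in CPM (counts scaled to library size with TMM factors) was 1062, 891, 930 and 985 in chow control, and 1150.45, 1501, 1195, 1281, 1653 and 1615 in high-fat control. The lowest high-fat heart exceeded the highest chow heart, so the groups did not overlap. The log2 fold change of mt-Nd3 was 0.53, with SE 0.09 and an adjusted p of 0.0394 (edgeR quasi-likelihood test with Benjamini-Hochberg adjustment over 15216 genes).

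In that comparison 1 of 7 members was called at adjusted p under 0.05, against 0.0657% of all genes tested (0.0131% higher), and 1 of 7 had groups that did not overlap, against 2.42% of genes. That call was lost without any one of the 4 chow control hearts or without high-fat control 2, 5 or 6 (edgeR adjusted p = 0.0663 to 0.187). It was also lost without the 5 hearts that carry atrial markers, at 0.55 (edgeR adjusted p = 0.195).

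With the reads of Gm28438 added, the summed level was 2477, 2476, 2503 and 2695 CPM in chow control and 2828, 3389, 2775, 2923, 3371 and 3421 CPM in high-fat control. The groups still did not overlap. The difference fell to 0.30 (SE 0.08) and its edgeR adjusted p was 0.133, so mt-Nd3 and its copy taken as 1 did not pass. Over all 8 alternatives the adjusted p ran from 7.83e-05 to 0.195, with 5 of 8 under 0.05.

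Gm28438 alone differed by 0.13 (SE 0.08, edgeR adjusted p = 0.559). Its level was 1415 to 1711 CPM in chow control and 1579.6 to 1887 CPM in high-fat control, and these ranges overlap. mt-Nd3 took 42.9, 36.0, 37.1 and 36.5% of the summed reads in chow control, 37.2 to 43.4% in chow renin, 40.7, 44.3, 43.1, 43.8, 49.0 and 47.2% in high-fat control, and 39.0, 39.1, 40.1, 41.4 and 38.9% in high-fat renin. The high-fat control hearts thus had the highest mean part, 44.7% ± 3.0 (SD, n = 6), against 38.1% ± 3.2 (n = 4), 39.4% ± 2.2 (n = 6) and 39.7% ± 1.1 (n = 5) in chow control, chow renin and high-fat renin. The effective length of mt-Nd3, which the quantifier sets from each library's fragments, ran from 108 to 113 bases and was under 110 in chow control 1 and in high-fat control 4, 5 and 6; its part in the split of reads was not tested.

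**Figure D2:**
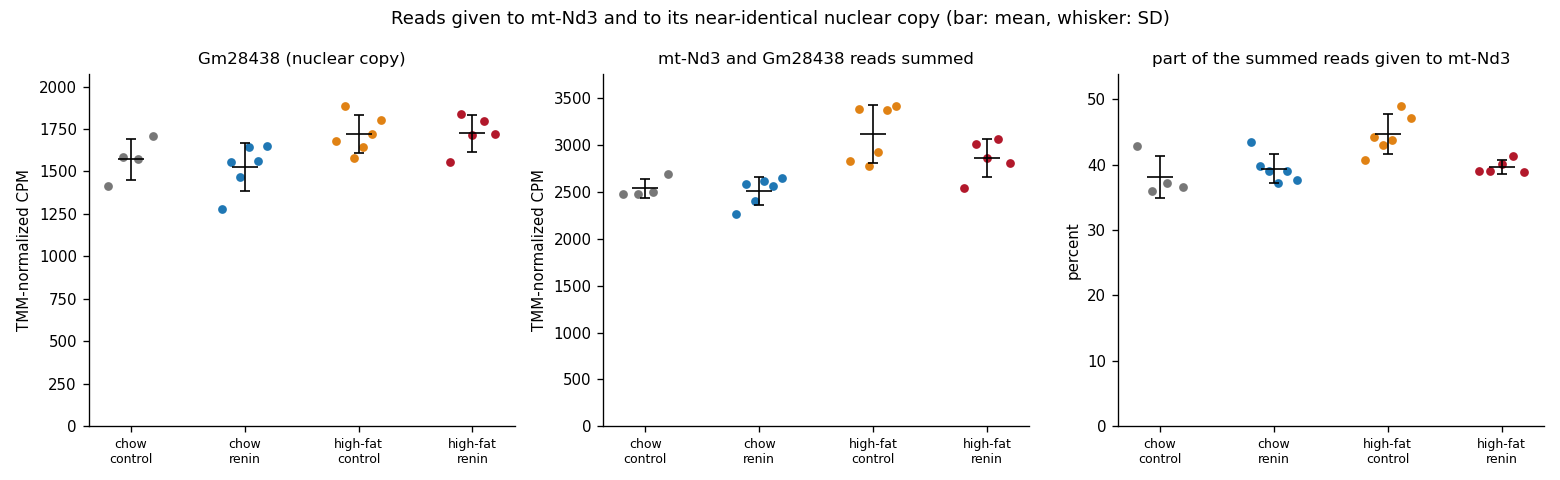
Each point is 1 heart, with the group mean and SD. The panels show CPM of the nuclear copy Gm28438, CPM of mt-Nd3 and Gm28438 summed, and the percent of the summed reads given to mt-Nd3, which reaches 49.0% in high-fat control 5 and is lowest, 36.0%, in chow control 2.

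The other 6 members did not pass without renin, although all lay above 0. mt-Nd2, mt-Nd4 and mt-Nd5 are the antiporter-like proton-pumping subunits. mt-Nd4 stood at 24692, 26172, 26450.2 and 28858 CPM in chow control and at 27258 to 37113 CPM in high-fat control (median 31066). It differed by 0.27 (SE 0.10, edgeR adjusted p = 0.307), with high-fat control 3 inside the chow range. For mt-Nd2 the chow hearts held 15478, 16594, 15021 and 15415 CPM and the high-fat hearts 14986 to 21940 CPM (median 17513). Its log2 difference was 0.23 (SE 0.10, edgeR adjusted p = 0.395), and high-fat control 6 lay below all chow hearts.

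mt-Nd5 had 24968, 25513, 22848 and 26440 CPM in chow control and 16015 to 30445 CPM in high-fat control (median 28296). The lowest of the 21 values, 16015, belonged to high-fat control 6, and the log2 difference was 0.07 (SE 0.12, edgeR adjusted p = 0.882). Without that heart it was 0.17 (edgeR adjusted p = 0.473). mt-Nd1, which helps to form the ubiquinone channel, differed by 0.15 (SE 0.09, edgeR adjusted p = 0.562). mt-Nd6 and mt-Nd4l, which link that channel to the pumping subunits, differed by 0.23 (SE 0.10) and 0.14 (SE 0.11), with edgeR adjusted p of 0.402 and 0.706. Without high-fat control 6 mt-Nd4l differed by 0.24 (edgeR adjusted p = 0.240). The median over the 7 members was 0.23, against 0.01 over all genes tested. It was 0.17 with library totals and 0.10 with limma on log2(TPM + 1), where 5 of 7 lay above 0.

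Under renin, the diet comparison called mt-Nd2. It stood at 13304 to 15831 CPM in chow renin (median 14373) and at 13925, 17778, 17373, 18846 and 17850 CPM in high-fat renin. High-fat renin 1 lay inside the chow range and its 4 group mates above it. The difference was 0.26 (SE 0.09, adjusted p = 0.0413, edgeR). Here 1 of 7 members was called, against 22.6% of all genes tested (9.81% higher). That call was lost without chow renin 1, 2, 3, 4 or 5 or high-fat renin 2, 3, 4 or 5 (edgeR adjusted p up to 0.157). It was also lost with no filter (0.25), library totals (0.17), upper-quartile factors (0.21) and limma on log2(TPM + 1) (0.15), with adjusted p-values of 0.0727 to 0.119. Without the hearts that carry atrial markers mt-Nd2 differed by 0.18 (edgeR adjusted p = 0.336).

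mt-Nd3 had 941 to 1029 CPM in chow renin (median 990.4) and 995, 1178, 1145, 1268 and 1092 CPM in high-fat renin. Again only high-fat renin 1 lay inside the chow range. The difference of 0.20 (SE 0.09) had an edgeR adjusted p of 0.0999, and with the copy added it was 0.19 (SE 0.07, edgeR adjusted p = 0.0579). The remaining 5 members differed by 0.09 (mt-Nd6) to 0.17 (mt-Nd4l) and had edgeR adjusted p-values of 0.188 to 0.568. With 1 heart left out mt-Nd6 ranged from 0.03 (without chow renin 1) to 0.15 (without high-fat renin 1), and mt-Nd5, at 0.11, fell to 0.05 without chow renin 1. High-fat renin 1 was also the lowest of the 21 hearts for mt-Nd4 (22041 CPM) and mt-Nd6 (3906 CPM).

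Averaged over both vectors, the diet comparison called 3 of 7 members, all higher, against 12.3% of genes tested called in either direction and 4.5% called higher. mt-Nd3 was higher by 0.37 (SE 0.06, adjusted p = 0.000518, edgeR). It passed in all 31 fits run, with every library left out in turn and with the copy added, where it was higher by 0.24 (SE 0.05, edgeR adjusted p = 0.00289). Across those 31 fits the difference ranged from 0.23 to 0.39 and the adjusted p from 1.27e-06 to 0.00707. The 2 comparisons that make up this average are the ones given above, so it adds no hearts to them.

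mt-Nd2 was higher by 0.24 (SE 0.07, edgeR adjusted p = 0.0181) over both vectors. Its call was lost without chow control 1, chow renin 1 or chow renin 3 (edgeR adjusted p = 0.0511 to 0.0558). mt-Nd4 was higher by 0.21 (SE 0.07, edgeR adjusted p = 0.0367). Its call was lost in 10 of the 21 fits with a heart left out, namely without chow control 1, 2 or 3, chow renin 1, 3 or 5, high-fat control 2 or 5, or high-fat renin 2 or 4 (edgeR adjusted p = 0.0555 to 0.111). It was also lost with no filter (0.20), library totals (0.14), upper-quartile factors (0.18) and limma on log2(TPM + 1) (0.09), with adjusted p-values of 0.0586 to 0.133. With limma mt-Nd2 stayed called at 0.12 (limma adjusted p = 0.0493). With the 5 hearts that carry atrial markers left out, mt-Nd3 kept its call (0.35, edgeR adjusted p = 0.00707) and mt-Nd2 (0.20, 0.140) and mt-Nd4 (0.19, 0.148) did not.

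The other 4 members differed over both vectors by 0.15 (mt-Nd1, SE 0.06, edgeR adjusted p = 0.101), 0.15 (mt-Nd4l, SE 0.08, 0.224), 0.09 (mt-Nd5, SE 0.08, 0.556) and 0.16 (mt-Nd6, SE 0.07, 0.137). mt-Nd4l passed without high-fat control 6, at 0.20 (edgeR adjusted p = 0.00612), and mt-Nd5 stood at 0.14 without it (edgeR adjusted p = 0.0853) and at 0.05 without chow renin 1. All 7 lay above 0 in each of the 3 diet comparisons, except that mt-Nd6 under renin was at -0.0016 with library totals only and at -0.0028 without the hearts that carry atrial markers, and that limma on log2(TPM + 1) put mt-Nd4l and mt-Nd5 without renin, mt-Nd6 under renin and mt-Nd5 over both vectors below 0.

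**Figure D3:**
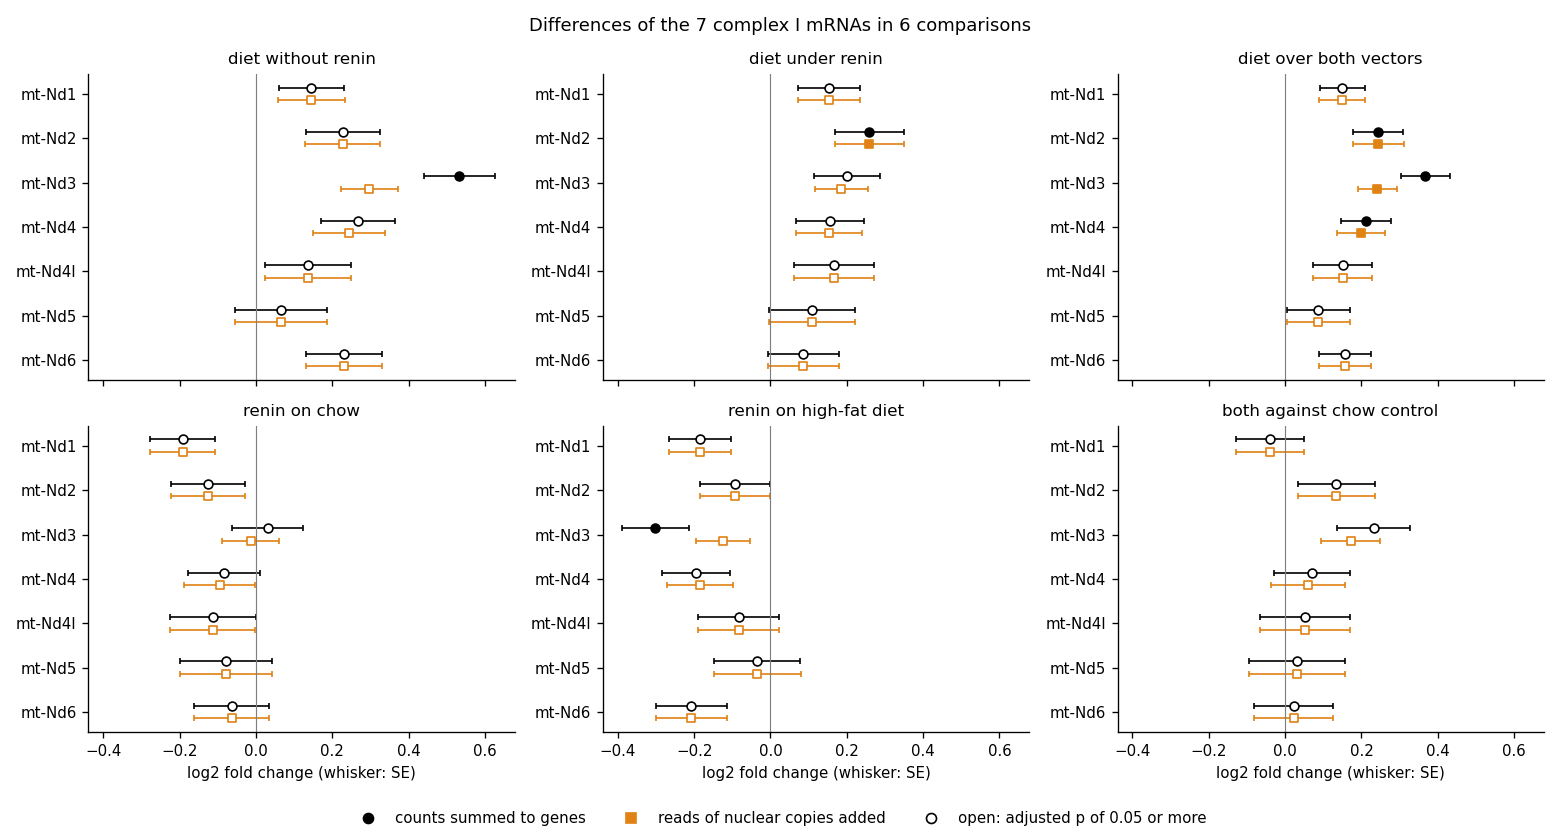
Each panel is 1 comparison and each row 1 gene, with the log2 fold change and its SE. Black circles are fits to counts summed to genes and orange squares fits to the counts with the reads of nuclear copies added; filled marks have an adjusted p under 0.05. The mt-Nd3 marks move toward 0 when the copy is added, from 0.53 to 0.30 without renin and from -0.30 to -0.12 for renin on the high-fat diet.

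Renin on the high-fat diet was the comparison in which mt-Nd3 was lower. The high-fat control values were those given above, 1150.45 to 1653 CPM with a median of 1391, and the high-fat renin values ran from 995 to 1268 CPM with a median of 1145. High-fat renin 1, 3 and 5 lay below every high-fat control heart and the other 2 inside that group's range. The difference was -0.30 (SE 0.09, adjusted p = 0.0282, edgeR), and 1 of 7 members was called, against 11.1% of genes tested (5.08% lower). This call was lost without high-fat control 2, 5 or 6 or high-fat renin 1 or 5 (edgeR adjusted p = 0.0568 to 0.0927).

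With the copy added, the mt-Nd3 difference between the high-fat groups was -0.12 (SE 0.07, edgeR adjusted p = 0.266) and did not pass. Over the 8 alternatives its adjusted p ran from 0.00709 to 0.266, with 5 of 8 under 0.05. Gm28438 itself differed by 0.00 (SE 0.07, edgeR adjusted p = 0.976). The other 6 members lay between -0.21 (mt-Nd6, SE 0.09) and -0.03 (mt-Nd5, SE 0.11), with edgeR adjusted p of 0.143 to 0.884. With 1 heart left out mt-Nd6 ranged from -0.25 to -0.13 and mt-Nd4 from -0.24 to -0.13. The ranges were -0.22 to -0.14 for mt-Nd1 and -0.14 to -0.03 for mt-Nd2. Without high-fat control 6 mt-Nd4l stood at -0.19 (edgeR adjusted p = 0.0723) instead of -0.08, and mt-Nd5 at -0.14 (edgeR adjusted p = 0.245). All 7 were below 0, except that mt-Nd5 lay at 0.03 with library totals only and reached 0.014 with 1 heart left out, and mt-Nd2, mt-Nd4l and mt-Nd5 lay above 0 with limma on log2(TPM + 1).

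Renin on chow called 0 of 7 members by edgeR, against 13.5% of genes tested (3.36% lower). DESeq2 and limma also called 0, and 1 member, mt-Nd1, had an unadjusted edgeR p under 0.05. mt-Nd1 had 21917, 23265, 18729.9 and 20242 CPM in chow control and 17449 to 19508 CPM in chow renin (median 18369.5). Chow control 3 lay inside the renin range, and the difference was -0.19 (SE 0.09, edgeR adjusted p = 0.155). mt-Nd3 differed by 0.03 (SE 0.09, edgeR adjusted p = 0.887), with 940.9 to 1029 CPM in chow renin inside the chow control range. The other 5 members lay between -0.12 and -0.06 with edgeR adjusted p of 0.473 to 0.769, and mt-Nd4, mt-Nd5 and mt-Nd6 lay above 0 when scaled by library totals and with limma on log2(TPM + 1). In these chow renin hearts the central nervous markers were higher (9 of 10 called), and their part in the values was not tested.

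Against chow control, the hearts with both the diet and renin called 0 of 7 members by edgeR, against 8.29% of genes tested (4.25% lower). DESeq2 and limma called 0 as well, and only mt-Nd3 had an unadjusted edgeR p under 0.05. It differed by 0.23 (SE 0.10, edgeR adjusted p = 0.140), and with the copy added by 0.17 (SE 0.08, edgeR adjusted p = 0.176). The remaining members lay between -0.04 (mt-Nd1) and 0.13 (mt-Nd2). In the authors' deposited table, the comparison headed HFD+virus gave the 7 members log2 fold changes of -0.03 to 0.13, the highest for mt-Nd3, and adjusted p-values of 0.237 to 0.987. The reference group of that table is not given in the sources used here.

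Whether the effect of the diet differed with renin was tested with an interaction term. It called 0 of 7 members by edgeR, against 10.4% of genes tested, and DESeq2 and limma called 0. mt-Nd3, the only member with an unadjusted edgeR p under 0.05, had an interaction of -0.33 (SE 0.13, adjusted p = 0.104). With the copy added this was -0.11 (SE 0.10, edgeR adjusted p = 0.574). Among the fits run, the test passed only without high-fat control 1 (-0.38, edgeR adjusted p = 0.0388) and with library totals only (-0.37, edgeR adjusted p = 0.0439). So a diet effect on mt-Nd3 that passed without renin and not under renin was not shown to differ between them.

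The 7 complex I genes took 30.03% ± 0.73 (SD, n = 21) of the reads of the 13 mitochondrial mRNAs, with 27.4% in high-fat control 6 and 29.4 to 30.8% elsewhere. mt-Nd4 held the largest part of the 7, 8.22% ± 0.31, then mt-Nd5 with 7.39% ± 0.71, mt-Nd1 with 6.12% ± 0.38 and mt-Nd2 with 4.81% ± 0.27. mt-Nd4l held 1.61% ± 0.14, mt-Nd6 1.55% ± 0.07 and mt-Nd3 0.334% ± 0.042. mt-Co1, a cytochrome c oxidase subunit, took 34.3% ± 0.78, more than all 7 together.

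The part of mt-Nd3 in the mitochondrial mRNA reads does not depend on scaling between libraries. It was 0.323, 0.263, 0.296 and 0.282% in chow control, 0.306 to 0.347% in chow renin, 0.306 to 0.471% in high-fat control, and 0.345, 0.319, 0.340, 0.353 and 0.328% in high-fat renin. The 3 lowest hearts on this measure were chow controls and the highest was high-fat control 6. None of the 35 tests of a member's part between 2 groups passed after adjustment. The smallest exact permutation p that a pair allows is 0.00216 to 0.00794. A lone test at that limit cannot pass after adjustment over 35 tests, so the tests cannot show that a member's part was unchanged. The smallest adjusted p was 0.278, shared by mt-Nd3 without renin (exact permutation p = 0.0238), mt-Nd3 with diet and renin against control (exact permutation p = 0.0159) and mt-Nd2 with diet under renin (exact permutation p = 0.00866).

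With the reads of the copies added, the part of mt-Nd3 was 0.744, 0.723, 0.784 and 0.766% in chow control, 0.785 to 0.828% in chow renin (median 0.811%), 0.747 to 0.992% in high-fat control (median 0.792%), and 0.866, 0.811, 0.842, 0.846 and 0.837% in high-fat renin. The 3 lowest hearts were then chow control 2, chow control 1 and high-fat control 1. All chow control hearts lay below all hearts of both renin groups and inside or below the range of high-fat control. High-fat control 6 held the highest value, 0.992%, and the nearest heart of its group 0.830%. The difference without renin, with that heart in, was 0.068 points (exact permutation p = 0.148, adjusted 0.707). It was 0.053 points for renin on chow (exact permutation p = 0.00476, the smallest this pair allows) and 0.086 points with both against control (exact permutation p = 0.00794, the smallest for that pair), each with an adjusted p of 0.101. The adjusted p of mt-Nd2 with diet under renin was also 0.101. None of the 35 tests passed, and here too a lone test could not have passed after adjustment.

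**Figure D4:**
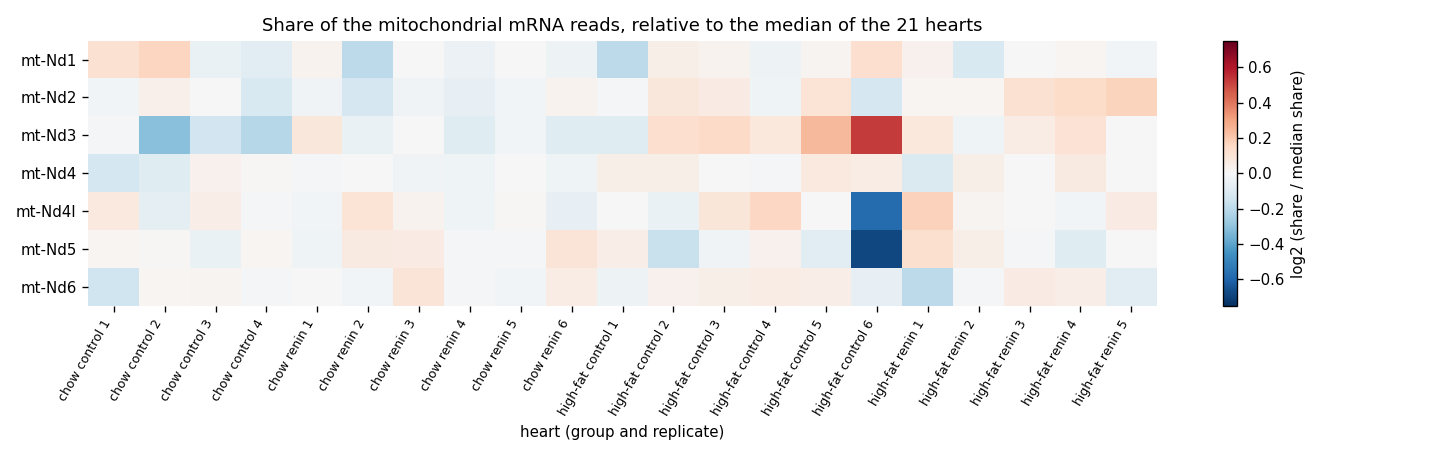
Columns are the 21 hearts and rows the 7 genes; color gives the log2 of a gene's share of the mitochondrial mRNA reads over its median share. High-fat control 6 stands apart, with mt-Nd4l at 1.08% and mt-Nd5 at 4.67% of these reads and mt-Nd3 at 0.471%.

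High-fat control 6 had an uneven mitochondrial profile. Its mt-Nd4l was 3696 CPM and its mt-Nd5 16015 CPM, whereas its 5 group mates held at least 5673 and 24388 CPM. mt-Atp8, an ATP synthase subunit, was low too, at 1.84% of the mitochondrial mRNA reads against 2.08 to 2.52% elsewhere. mt-Co2 (10.1%), mt-Co3 (10.4%) and mt-Atp6 (5.91%) were the highest of all hearts. With the copy added and this heart left out, mt-Nd3 differed by 0.27 (SE 0.07, edgeR adjusted p = 0.229) without renin and by 0.23 (SE 0.05, edgeR adjusted p = 0.00372) over both vectors.

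The 6 other mitochondrial mRNAs had medians near those of the members in the comparisons given next, and the lists were not tested against each other. These 6 were called in the diet comparison over both vectors only, and there 2 of 6 were higher, beside 4.5% of all genes, mt-Atp6 (0.21, SE 0.06, edgeR adjusted p = 0.0186) and mt-Co3 (0.18, SE 0.05, edgeR adjusted p = 0.0280). Their median was 0.22 without renin, 0.14 under renin and 0.18 over both vectors, beside 0.23, 0.16 and 0.16 for the complex I members. For renin on the high-fat diet both medians were -0.18. The median of the complex I members moved with the scaling. Under renin it was 0.07 with library totals and 0.05 with limma on log2(TPM + 1), over both vectors 0.09 and 0.04, and for renin on the high-fat diet -0.12 and -0.06.

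Nuclear genes of complex I gave other counts, all from the edgeR fit with TMM factors and not given for the alternatives. Over all genes, the 773 lower calls for renin on the high-fat diet became 399 with library totals and 180 with limma. Of the 7 core subunits from the nucleus, which carry the flavin and iron-sulfur clusters, 0 were called in the 3 diet comparisons, with medians of 0.02, -0.04 and -0.02. For renin on the high-fat diet 6 of 7 were called lower, again beside 5.08% of all genes, with a median of -0.24. Ndufs7, next to the ubiquinone site, stood at -0.39 (SE 0.09, edgeR adjusted p = 0.00678). Ndufv1, which binds NADH, stood at -0.35 (SE 0.07, edgeR adjusted p = 0.00317) and Ndufv2 at -0.21 (SE 0.05, edgeR adjusted p = 0.0148). With both diet and renin against control 3 of 7 were lower, beside 4.25% of all genes. With renin on chow 1 of 7 was lower, beside 3.36% of all genes, Ndufs8 (-0.21, edgeR adjusted p = 0.0397).

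Of 30 supernumerary subunits, which surround the core, 16 were called lower for renin on the high-fat diet, beside 5.08% of all genes (median -0.22). The 3 with the smallest adjusted p were Ndufa5 (-0.37, SE 0.09), Ndufs4 (-0.27, SE 0.07) and Ndufb11 (-0.36, SE 0.09), with edgeR adjusted p of 0.00964, 0.0103 and 0.0121. On chow 4 of 30 were lower with renin, beside 3.36% of all genes, and with both diet and renin 1 of 30, Ndufa12, beside 4.25%. In the diet comparisons 1 of 30 was called, Ndufb1-ps over both vectors (0.14, SE 0.04, edgeR adjusted p = 0.0402), where 4.5% of all genes were called higher. The summed level of the heart muscle markers ran from 36522 to 40776 TPM in high-fat renin and from 39961 to 47088 TPM in high-fat control. With renin on that diet 5 of 12 of those markers were called lower and 1 higher, Mybpc3 (0.43, SE 0.14, edgeR adjusted p = 0.0496). In that comparison 11.1% of all genes were called in either direction. The summed level of 6 fibroblast markers ran from 261 to 379 TPM in high-fat renin and from 165 to 390 TPM in high-fat control (medians 298 and 195 TPM), and 0 of 6 were called. The part of both lists in these values was not tested.

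**Figure D5:**
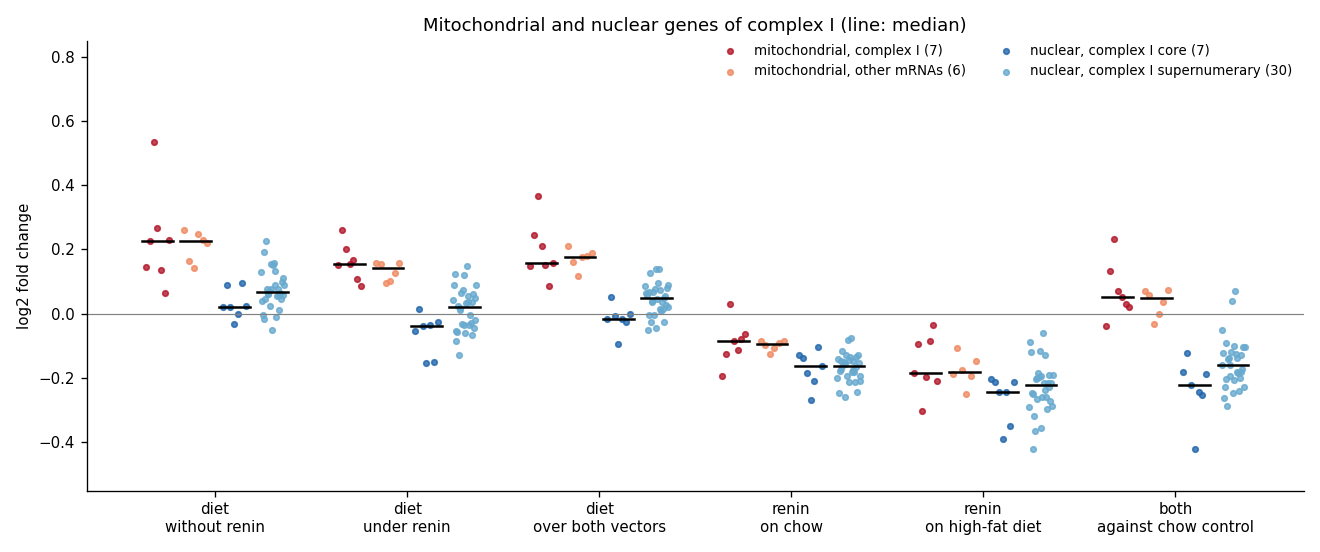
Points are genes and black lines medians of log2 fold changes in 6 comparisons, for the 7 mitochondrial complex I genes, the 6 other mitochondrial mRNAs, 7 nuclear core and 30 nuclear supernumerary complex I genes. In the diet comparisons the mitochondrial medians (0.14 to 0.23) lie above the nuclear ones (-0.04 to 0.07), and for renin on the high-fat diet all 4 medians lie between -0.24 and -0.18.

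Of 17 genes for mitochondrial transcription and DNA replication, 2 rose with the diet under renin, beside 9.81% of all genes: Tefm, the transcription elongation factor (0.33, SE 0.08, edgeR adjusted p = 0.00480), and Tfam, which packages mitochondrial DNA and starts transcription (0.25, SE 0.07, edgeR adjusted p = 0.0168). Both also passed the interaction test (0.39 and 0.35, edgeR adjusted p = 0.0383 and 0.0347), where 2 of 17 were called, beside 10.4% of all genes. With renin, Mgme1, a nuclease of mitochondrial DNA, was lower on chow (-0.31, edgeR adjusted p = 0.0263) and Top1mt, a topoisomerase, lower on the high-fat diet (-0.40, edgeR adjusted p = 0.0477). Each was 1 of 17 called lower, beside 3.36% and 5.08% of all genes. Without renin the diet called 0 of 17, with a median of -0.06.

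Of 28 measured genes for processing and stability of mitochondrial RNA, 3 were called with the diet under renin, 3 with renin on chow, 4 with renin on the high-fat diet, 2 with both against control, 3 in the interaction and 1 for the diet over both vectors. The shares of all genes called in those comparisons were 22.6, 13.5, 11.1, 8.29, 10.4 and 12.3%. Without renin the diet called 0 of 28. Hsd17b10, a subunit of the mitochondrial RNase P, was lower in 4 comparisons. It stood at -0.36 with the diet under renin (SE 0.06, edgeR adjusted p = 9.77e-05), -0.36 with renin on the high-fat diet (SE 0.06, 0.00130), -0.51 with both against control (SE 0.07, 0.000124) and -0.26 for the diet over both vectors (SE 0.04, 0.000447). Rexo2, a nuclease for short mitochondrial RNA, rose in the first 3 of these (0.24, 0.27 and 0.23, edgeR adjusted p = 0.00484, 0.00723 and 0.0359). Supv3l1, the helicase of the mitochondrial degradosome, rose with the diet under renin (0.27, edgeR adjusted p = 0.0219) and was lower with renin on chow (-0.30, edgeR adjusted p = 0.0260).

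Of 16 measured complex I assembly factors, 6 were lower with renin on chow, beside 3.36% of all genes, and 3 higher with the diet under renin, beside 9.81%. Ndufaf4 stood at -0.39 (SE 0.09, edgeR adjusted p = 0.00218) and Timmdc1 at -0.30 (SE 0.07, edgeR adjusted p = 0.00703). Timmdc1, an assembly factor of the membrane arm, rose with the diet under renin (0.27, SE 0.07, edgeR adjusted p = 0.00642) and passed the interaction test (0.46, SE 0.10, edgeR adjusted p = 0.00336). The interaction called 1 of 16, beside 10.4% of all genes. With renin on the high-fat diet 2 of 16 were lower, beside 5.08% of all genes. These were Ndufaf8 (-0.35, SE 0.09, edgeR adjusted p = 0.0124) and Ecsit (-0.21, SE 0.06, edgeR adjusted p = 0.0305). Ecsit was also the 1 of 16 lower with both against control (-0.26, edgeR adjusted p = 0.0231), beside 4.25% of all genes. Of 13 genes on a list for mitochondrial translation, 1 rose with the diet under renin, beside 9.81% of all genes. It was Tsfm, an elongation factor (0.22, edgeR adjusted p = 0.0233). With renin on chow 2 of 13 were lower, beside 3.36% of all genes, Letm1 (-0.26, edgeR adjusted p = 0.0110) and Tsfm (-0.22, edgeR adjusted p = 0.0495). The interaction called 2 of 13, beside 10.4% of all genes, Taco1 (0.75, SE 0.20, edgeR adjusted p = 0.0171) and Tsfm (0.35, SE 0.10, edgeR adjusted p = 0.0278).

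Across the 21 hearts, the nuclear genes whose log2 CPM followed the mean of the 7 members most closely were Rnf123 (Pearson r = 0.91), Prdx3 (0.90), Psap (0.89), Acat1 (0.88) and Ube2l3 (0.88). Prdx3 is a mitochondrial peroxide-removing enzyme and Acat1 a mitochondrial thiolase. For mt-Nd3 alone the closest were Eif4e3 (r = 0.90), Kxd1 (0.88), Gnas (0.85), March2 (0.84) and Acads (0.84), of which Acads is a mitochondrial acyl-CoA dehydrogenase. These 10 are the highest of all tested genes outside the mitochondrial genome by construction, the hearts share their groups and library depths, and the 2 lists have no gene in common.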

How the data were processed

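RNA sequencing of 21 hearts in 4 groups was used. The authors deposited, per the file headers, a table for each library with the length, effective length, TPM and estimated counts (expected counts) of 119215 transcripts. Salmon 1.10.2, DESeq2 1.40.2 and the builds GRCm38 and mm10 are named in the submitters' processing notes, without their roles. The authors' deposited table of comparisons holds log2 fold changes and adjusted p-values per the file headers; its 21 columns of library signal were not used.

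Estimated counts were summed to genes with GENCODE M21 (97.95% of transcripts matched; the others held 0.854 to 0.925% of reads) and rounded. edgeR 4.0.16 (R 4.3.3) fitted 1 quasi-likelihood model over all libraries and 4 groups with TMM factors (0.886 to 1.09) to 15216 genes that passed the filter on low counts, and all 7 members passed. The fewest reads of a member in a library were 16045 (mt-Nd3), a counting error of 0.79%. Adjusted p-values are Benjamini-Hochberg over all genes tested, and a call is an adjusted p under 0.05. Shares of reads were compared with two-sided exact permutation tests in scipy 1.17.1. The edgeR script was tested on simulated data. The deviations of same-numbered libraries of different groups had a median correlation of 0.074 over 28 pairs. All 6 pairs of number 3 lay over 0.1 (0.26 to 0.42), but only 11 of the 28 did, so replicate numbers were not taken to pair hearts.

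Alternatives were DESeq2 1.42.0, limma 3.58.1 on log2(TPM + 1), no filter, library totals, upper-quartile factors, a replicate block, reads of nuclear copies added, and each heart left out. Fits without the hearts that carry atrial markers, and with copies added and high-fat control 6 left out, were chosen after seeing the data. Members, gene lists and tests were chosen with earlier results of these data known. All members are named. From each list, up to 3 called genes per direction and comparison with the smallest adjusted p are candidates for naming, together with the 5 nuclear genes of highest correlation. A nuclear copy is a transcript that matches a member over at least 100 bases at 95% identity or more. The 2 mitochondrial rRNAs are not analysed here.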

Additional observations from a re-analysis of the deposited data

Results flagged for a closer look

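In 12 of 100 combinations of a value and a group, 1 heart lay farther from the others than Dixon's 95% limit; about 5 are expected by chance. The values checked were the CPM of each member, the shares of the 13 mitochondrial mRNAs in their summed reads, the complex I shares, and the values of mt-Nd3 with its copy. High-fat control 6 held 7 of the 12. Its share of the mitochondrial mRNA reads was low for mt-Nd4l (1.08%, nearest heart of the group 1.55%), mt-Nd5 (4.67%, nearest 6.68%) and the 7 complex I genes summed (27.4%, nearest 29.8%). It was high for mt-Co2 (10.1%, nearest 8.67%), mt-Co3 (10.4%, nearest 8.77%), mt-Atp6 (5.91%, nearest 5.01%) and mt-Nd3 with its copy (0.992%, nearest 0.830%). Without this heart the log2 difference of mt-Nd5 and mt-Nd4l in the diet comparison without renin was 0.17 and 0.24, instead of 0.07 and 0.14, and neither was called.

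The other 5 lay in 5 other hearts. mt-Nd5 took 7.26% of these reads in chow control 3, where the nearest chow control had 7.54%. mt-Nd1 took 5.36% in chow renin 2, where the nearest chow renin heart had 5.98%. mt-Co2 took 7.56% in high-fat renin 1, where the nearest of its group had 8.23%. mt-Nd3 with its copy stood at 2695 CPM in chow control 4, where the nearest chow control had 2503 CPM. mt-Nd3 held 42.9% of the reads of the gene and its copy in chow control 1, where the nearest had 37.1%.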

How the results depend on the processing

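The call of mt-Nd3 for the diet over both vectors kept its direction and its side of 0.05 in every alternative run; each other call of a member was lost in at least 1. Members called in the diet comparison without renin fell from 1 to 0 with the replicate block, with nuclear copies added and without the hearts that carry atrial markers. Under renin they fell from 1 to 0 with no filter, library totals, upper-quartile factors, limma and without those atrial hearts. For renin on the high-fat diet they fell from 1 to 0 with the replicate block, limma and copies added. The interaction called 1 member with library totals, and the diet over both vectors 1 without the atrial hearts and 2, without mt-Nd4, with no filter, library totals, upper-quartile factors and limma. With 1 heart left out in turn, the members called ranged from 0 to 1 without renin, under renin, for renin on the high-fat diet and for the interaction, and from 1 to 4 over both vectors. The cause of these changes was not tested. The fewest reads given to a member in a library were 16045, but only reads that reach the bases named above tell mt-Nd3 from its copy, and the effect of depth was not tested. The difference of the summed share ranged over fits with a heart left out from 0.33 to 0.78 points for the diet under renin and from -0.195 to 0.0056 for renin on chow, and the latter was 0.051 without the atrial hearts.

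Pairing by replicate number was a block in 1 alternative; the numbers did not pair hearts throughout, although all 6 pairs of number 3, which carry atrial markers, had correlations over 0.1. That replicate block gave mt-Nd3 0.48 without renin (edgeR adjusted p = 0.120) and -0.27 for renin on the high-fat diet (edgeR adjusted p = 0.0521), and it changed no other call of a member. It turned the sign of mt-Nd3 for renin on chow (-0.018) and of mt-Nd4l (-0.056) and mt-Nd5 (-0.028) for the interaction.

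Other changes of sign were in values that were not called. Limma on log2(TPM + 1) gave mt-Nd4l -0.0043 and mt-Nd5 -0.082 without renin, mt-Nd6 -0.029 under renin, mt-Nd4 0.024, mt-Nd5 0.029 and mt-Nd6 0.032 for renin on chow, mt-Nd2 0.031, mt-Nd4l 0.043 and mt-Nd5 0.12 for renin on the high-fat diet, and mt-Nd5 -0.038 over both vectors. Library totals gave mt-Nd6 -0.0016 under renin, mt-Nd4 0.012, mt-Nd5 0.018 and mt-Nd6 0.033 for renin on chow, mt-Nd5 0.033 for renin on the high-fat diet, and mt-Nd1 -0.026 for the interaction. Without the atrial hearts mt-Nd6 was -0.0028 under renin, mt-Nd5 -0.017 and mt-Nd6 -0.024 with both against control, and the interaction was -0.026 (mt-Nd1), -0.052 (mt-Nd2), -0.038 (mt-Nd4l) and -0.015 (mt-Nd5). For the interaction, DESeq2 gave mt-Nd1 -0.0053, and upper-quartile factors gave mt-Nd1 -0.045, mt-Nd2 -0.019, mt-Nd4l -0.022 and mt-Nd5 -0.0085. With copies added mt-Nd3 was -0.013 for renin on chow and its part of the mitochondrial mRNA reads 0.018 points higher for renin on the high-fat diet. On the TPM scale the part of mt-Nd5 was -0.0044 points with both against control.

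With a heart left out, log2 values ranged from -0.00070 to 0.085 for mt-Nd3 with renin on chow and from -0.14 to 0.014 for mt-Nd5 with renin on the high-fat diet. With both against control they ranged from -0.090 to 0.0052 (mt-Nd1), -0.013 to 0.060 (mt-Nd5) and -0.028 to 0.096 (mt-Nd6), and for the interaction from -0.054 to 0.060 (mt-Nd1), -0.020 to 0.090 (mt-Nd2), -0.074 to 0.078 (mt-Nd4l) and -0.064 to 0.092 (mt-Nd5). Differences in the part of the mitochondrial mRNA reads ranged, in points, from -0.34 to 0.014 (mt-Nd1) and -0.11 to 0.035 (mt-Nd4l) without renin, and from -0.022 to 0.20 (mt-Nd1) and -0.23 to 0.056 (mt-Nd5) under renin. With renin on chow they ranged from -0.15 to 0.015 (mt-Nd2), -0.016 to 0.28 (mt-Nd4) and -0.037 to 0.016 (mt-Nd4l), with renin on the high-fat diet from -0.23 to 0.042 (mt-Nd1), and with both against control from -0.067 to 0.21 (mt-Nd5) and -0.044 to 0.038 (mt-Nd6).

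Over all genes, the 10 calls without renin became 124 with DESeq2, 87 with limma, 35 with library totals and 0 with the block. The split of higher and lower calls for the diet over both vectors, 685 and 1184, became 186 and 1766 with library totals. It became 426 and 1376 with upper-quartile factors and 92 and 2234 with limma. For renin on the high-fat diet, 923 and 773 became 1507 and 399 with library totals and 1520 and 180 with limma. The diet under renin went from 1492 and 1949 to 536 and 2430 with library totals, renin on chow from 1537 and 511 to 1798 and 72, and the interaction from 479 and 1111 to 210 and 914 with limma.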
